A study of Homo sapiens with 4 samples.

Results

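Genes of ceramide and sphingolipid metabolism were examined in CaSki cells, an established human papillomavirus-positive cervical squamous carcinoma line, with or without introduced ZNF750. The family held 10 listed genes, namely SPTLC1, SPTLC2, SPTLC3, CERS2, CERS6, DEGS1, UGCG, SGMS2, SMPD1 and ASAH1. Members were the probe sets whose platform annotation gave exactly 1 gene symbol equal to a listed gene, and every such probe set was kept. This gave 30 probe sets of 9 genes, among 54675 probe sets and 19775 genes with such a symbol in all, and no probe set was matched to SPTLC3, which is not analysed here. A single further probe set, annotated to SPTLC1 together with MRPL51, fell outside the rule.

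The study compared 2 arrays of total RNA from CaSki cells given ZNF750 by lentivirus, called ZNF750-labelled here, with 2 arrays from CaSki cells given GFP by lentivirus as the control. All cells were grown in DMEM with penicillin and streptomycin, and the labels give the fetal bovine serum content as 0%. RNA was labelled with biotin and hybridized to Affymetrix HG-U133 Plus 2.0 arrays, which carry 1 or more probe sets per gene. The samples are described as biological duplicates with no account of separate cultures, so the p-values measure the spread between these arrays. Values are RMA values on the log2 scale, where 1 unit is a doubling of the signal, and each difference is ZNF750-labelled minus GFP with the standard error of limma (n = 2 arrays per group). A probe set was called changed at a Benjamini-Hochberg adjusted p under 0.05 over all 54613 probe sets that were not controls.

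Ceramides are the central lipids of this pathway. Serine palmitoyltransferase joins serine with an activated fatty acid, ceramide synthases attach an acyl chain to the resulting base, and a desaturase completes ceramide, which is then turned into glucosylceramide or sphingomyelin or broken down to sphingosine in the lysosome. In stratified epithelia glucosylceramides and sphingomyelin are the stores from which the ceramides of the skin barrier are released as cells differentiate, and ZNF750 is a zinc finger protein that drives this differentiation in squamous epithelia. The arrays measured transcripts only, not lipids or enzyme activities, and in bulk RNA fewer cells of a type and less RNA per cell cannot be told apart.

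The arrays resembled each other across probe sets, with Pearson correlations of 0.9968 between the ZNF750-labelled arrays, 0.9972 between the GFP arrays and 0.9922 to 0.9937 between groups. These are correlations across probe sets, which are not independent replicates. The only ZNF750 probe set (219995_s_at) lay at 2.23 and 2.29 in the ZNF750-labelled arrays, against 2.13 and 2.37 in the GFP arrays. It did not show the introduced gene and so does not check the labels. Whether this probe set can read the introduced coding sequence, and whether that sequence was expressed, was not tested. Of 10 listed epithelial markers, 8 were measured (KRT5, KRT7, KRT8, KRT14, KRT18, KRT19, EPCAM and CDH1), without TP63 and KRT17. All 8 lay above log2 8 on every array, as did 1 fibroblast marker, COL1A1. In the ZNF750-labelled arrays 3 were higher (KRT5, KRT14 and KRT19) and 2 lower (KRT7 and KRT18). KRT14 differed the most (1.10 ± 0.035). Fibroblast, leukocyte and endothelial markers gave 0 calls among 6, 3 and 3 measured genes (1, 0 and 0 at an unadjusted limma p under 0.05). The log2 of the summed fibroblast marker signals was 9.00 to 9.11 in the ZNF750-labelled arrays and 8.80 to 9.00 in the GFP arrays. The ACTB and GAPDH measures of RNA integrity differed between the groups. The ACTB 3′ control exceeded its 5′ control, in log2 units, by 3.76 and 3.35 in the ZNF750-labelled arrays. In the GFP arrays this excess was 3.03 and 2.81. For GAPDH it was 0.85 and 0.80 in the ZNF750-labelled arrays, against 0.63 and 0.61 in the GFP arrays. The part of RNA integrity in the results below was not tested.

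Of the 30 member probe sets, 7 were lower and 2 were higher in the ZNF750-labelled arrays, and 21 did not pass. The lower probe sets belonged to 4 genes, the serine palmitoyltransferase subunit genes SPTLC1 and SPTLC2 and the lysosomal hydrolase genes SMPD1 and ASAH1. The higher ones belonged to the ceramide synthase gene CERS2 and the desaturase gene DEGS1. Over all probe sets, 7.19% were called lower and 4.30% higher, against 23.3% and 6.67% of the members. The lower share of the members was thus above that of the table and the higher share near it, but 5 of the 7 lower probe sets came from ASAH1 and SPTLC2, which have several probe sets each and are not independent counts. Dim signal was commoner in the table: 22576 of 54613 probe sets had a mean under log2 5, against 4 of 30 members. With these left out, 14.4% of the table was lower and 7.8% higher, and 9 member probe sets were lower and 2 higher. Centring the arrays on brighter probe sets turned the split of the whole table to 6.56% lower and 7.63% higher, and the members remained at 7 lower and 2 higher.

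The arrays of the groups did not overlap for 17 member probe sets with lower and 4 with higher values in the ZNF750-labelled arrays. Over the whole table, 24.3% of probe sets were without overlap and lower and 29.9% without overlap and higher, against 56.7% and 13.3% of the members. Of the 17 lower ones, CERS6 and SPTLC2 hold 4 each and ASAH1 3, so they are not independent counts. With 2 arrays per group, small differences are also without overlap, such as 0.025 on SGMS2 243141_at. The median difference was -0.18 over the members and 0.026 over all probe sets. Differences of the members ran from -0.87 to 0.35, and 19 of them were below 0.

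**Figure D1:**
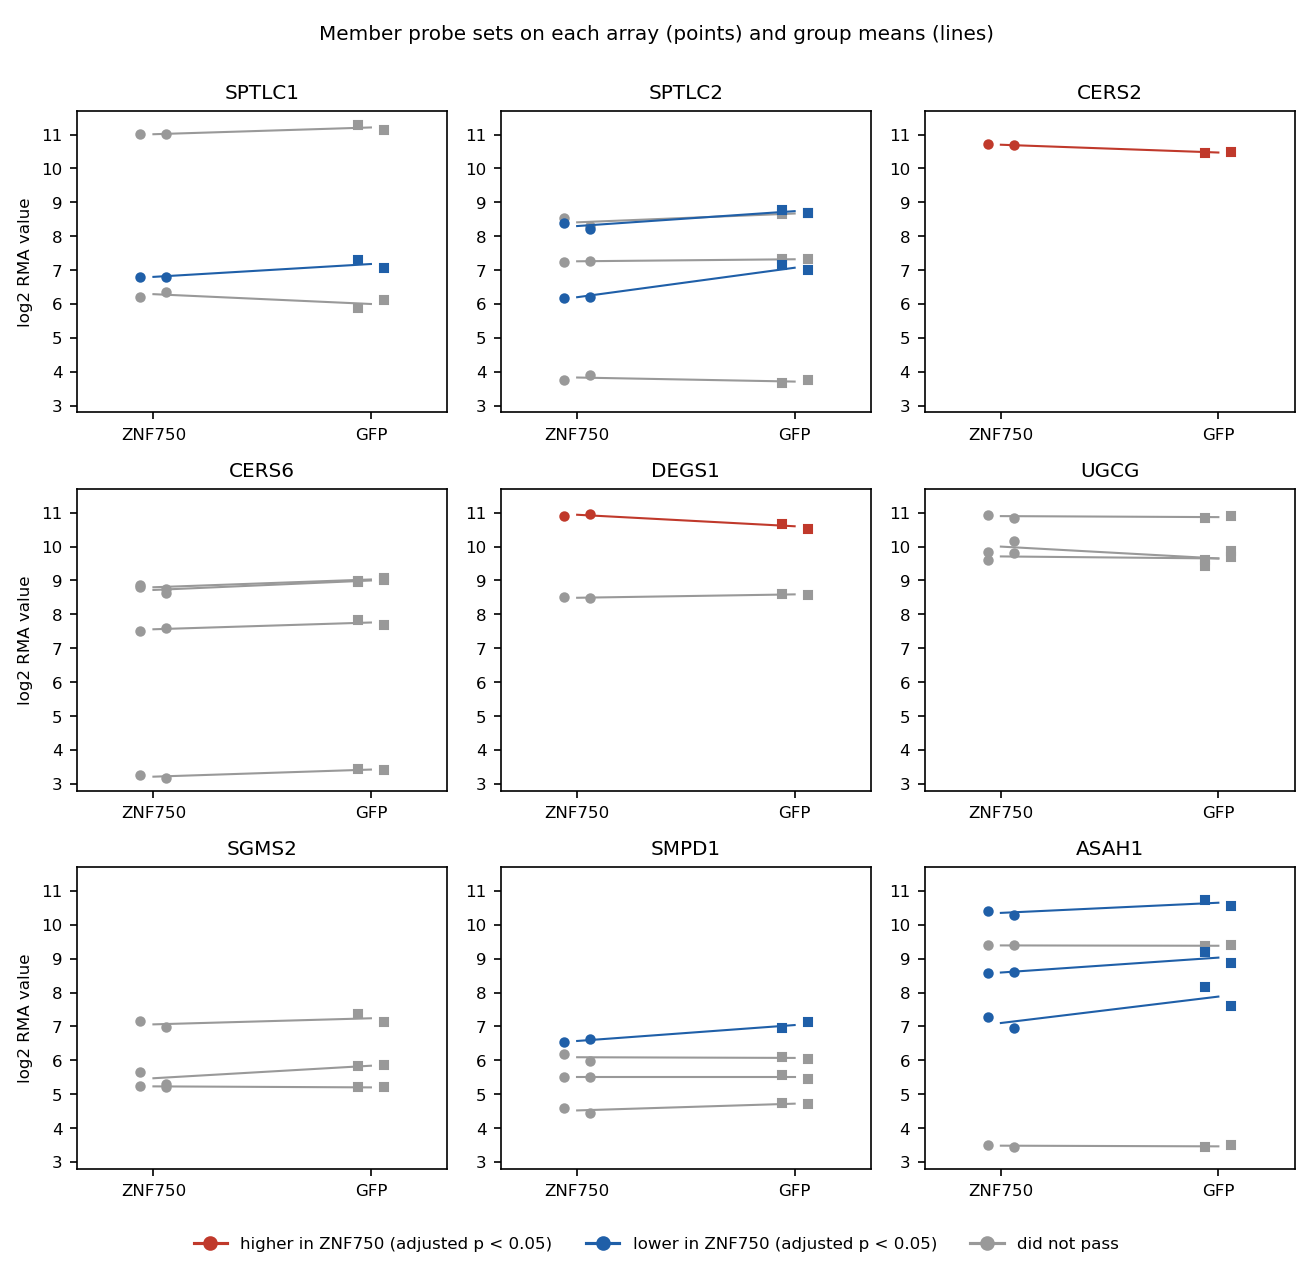
log2 RMA values of the 30 member probe sets in the ZNF750-labelled (circles, left) and GFP (squares, right) arrays, with a line joining the group means of each probe set, coloured where the adjusted p was under 0.05. SPTLC1, SPTLC2, SMPD1 and ASAH1 hold the 7 probe sets that were lower, and CERS2 and DEGS1 the 2 that were higher.

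Serine palmitoyltransferase is the entry enzyme of the pathway, and SPTLC1 pairs with SPTLC2 or SPTLC3 to form its core. Both measured subunit genes had a probe set that was lower in the ZNF750-labelled arrays, in all 3 of 8, while 0 were higher (1 at an unadjusted limma p under 0.05). That is 37.5% lower, against 7.19% of all probe sets, of which 4.30% were higher. Of the 3 lower ones, 2 were of SPTLC2. The RefSeq promoters of both genes (GRCh38.p14, 250 bases before to 50 after the annotated start, written 5′ to 3′ on the strand of the gene) are shown because each gene had a probe set that was lower, although the mean over the SPTLC1 probe sets did not pass. Capitals would mark the letters CCNNAGGC, a motif that has been reported for ZNF750, on either strand, and neither window holds them.
SPTLC2, chr14:77616588-77616887, minus strand: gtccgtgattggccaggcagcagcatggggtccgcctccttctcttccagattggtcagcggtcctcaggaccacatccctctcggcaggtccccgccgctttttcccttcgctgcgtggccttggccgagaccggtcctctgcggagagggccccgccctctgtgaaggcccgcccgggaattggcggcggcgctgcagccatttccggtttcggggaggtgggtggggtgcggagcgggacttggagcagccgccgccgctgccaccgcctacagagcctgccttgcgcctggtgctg
SPTLC1, chr9:92115364-92115663, minus strand: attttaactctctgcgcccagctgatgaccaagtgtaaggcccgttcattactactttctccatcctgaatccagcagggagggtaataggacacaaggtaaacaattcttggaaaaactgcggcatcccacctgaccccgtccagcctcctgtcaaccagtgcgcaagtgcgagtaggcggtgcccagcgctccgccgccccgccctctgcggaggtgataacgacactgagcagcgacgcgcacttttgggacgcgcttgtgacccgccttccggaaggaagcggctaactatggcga

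Of all 35116 RefSeq promoters of this length, 27.5% held CCNNAGGC on either strand. The absence of these letters from a window says nothing about binding of the factor. The SPTLC1 window held 4 matches to the E-box letters CANNTG, found in 68.7% of all promoters, and the SPTLC2 window held 0. The TATA box letters TATAAA, present in 11.5% of all promoters, were in neither. All motifs were searched on both strands, CANNTG reads the same on either, and no match of one overlapped a match of another in the member windows.

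SPTLC2, which encodes a catalytic subunit, had 5 probe sets. The largest difference of any member was on 216202_s_at, at 6.17 and 6.22 in the ZNF750-labelled arrays, against 7.14 and 7.00 in the GFP arrays. Both ZNF750-labelled arrays lay well below both GFP arrays, a 1.83-fold lower signal (-0.87 ± 0.095, limma adjusted p = 0.00248). A second probe set, 203127_s_at, read 8.38 and 8.21 in the ZNF750-labelled arrays, against 8.77 and 8.70 in the GFP arrays. It was also lower without overlap, by a smaller amount (-0.44 ± 0.078, limma adjusted p = 0.0131).

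The other SPTLC2 probe sets did not pass. The brightest, 225095_at, gave 8.53 and 8.29 in the ZNF750-labelled arrays, against 8.65 and 8.69 in the GFP arrays, a difference of -0.26 ± 0.087 (limma adjusted p = 0.106). Its groups did not overlap either. 203128_at differed by -0.066 ± 0.077, and 216203_at, which is dim (a mean under log2 5), by 0.12 ± 0.12. When the 5 probe sets were averaged, SPTLC2 was lower (-0.30 ± 0.063, limma adjusted p = 0.0215 over all genes).

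SPTLC1 encodes the subunit shared by all forms of the enzyme and had 3 probe sets, which went in different directions. 202278_s_at read 6.79 and 6.81 in the ZNF750-labelled arrays, against 7.30 and 7.07 in the GFP arrays, and passed narrowly (-0.38 ± 0.1, limma adjusted p = 0.0495). The brightest probe set, 202277_at, read 11.02 and 11.01 in the ZNF750-labelled arrays, against 11.29 and 11.14 in the GFP arrays, and did not pass (-0.20 ± 0.056, adjusted p = 0.0626). The call of 202278_s_at was lost with a replicate block (adjusted p = 0.0689), while 202277_at passed with dim probe sets left out (adjusted p = 0.0386) and with the brightest probe set of each gene (adjusted p = 0.0437). For both, each ZNF750-labelled array lay below each GFP array.

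The remaining SPTLC1 probe set, 1554053_at, pointed the other way, with 6.21 and 6.36 in the ZNF750-labelled arrays, against 5.88 and 6.12 in the GFP arrays (0.29 ± 0.12, limma adjusted p = 0.18). The mean of the 3 probe sets differed by -0.10 ± 0.056 and did not pass (limma adjusted p = 0.288). The probe set annotated to both MRPL51 and SPTLC1 (224334_s_at) differed by -0.18 (limma adjusted p = 0.188).

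Leaving out 1 array ended most of these calls. The SPTLC2 probe set 216202_s_at passed without ZNF750 replicate 1 (adjusted p = 0.0491) but not without either GFP array or ZNF750 replicate 2, and its difference stayed between -0.95 and -0.80. SPTLC2 203127_s_at and SPTLC1 202278_s_at failed to pass whichever array was left out, with differences of -0.52 to -0.36 and of -0.50 to -0.27. Without the intensity trend of the variance prior, 216202_s_at was the only member probe set that passed (adjusted p = 0.0318).

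Ceramide synthases attach the fatty acyl chain, CERS2 preferring very long chains and CERS6 shorter ones, and DEGS1 introduces the double bond that turns dihydroceramide into ceramide. In this group of 7 probe sets 2 were higher and 0 were lower (2 at an unadjusted limma p under 0.05). That is 28.6% higher, against 4.30% of all probe sets, of which 7.19% were lower. CERS2 was read by 1 probe set, 222212_s_at, at 10.72 and 10.68 in the ZNF750-labelled arrays, against 10.45 and 10.48 in the GFP arrays. The replicates were close and the groups well apart, a 1.18-fold rise (0.24 ± 0.046, limma adjusted p = 0.0183).

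CERS6 had 4 probe sets, none of which passed, although each was lower in both ZNF750-labelled arrays than in both GFP arrays. 212442_s_at read 8.82 and 8.63 in the ZNF750-labelled arrays, against 8.99 and 9.00 in the GFP arrays (-0.27 ± 0.077, limma adjusted p = 0.0639). 212446_s_at read 8.86 and 8.74 in the ZNF750-labelled arrays, against 8.97 and 9.08 in the GFP arrays (-0.23 ± 0.071, adjusted p = 0.0896). All 4 differences lay between -0.27 and -0.20, the narrowest spread of any member with several probe sets. Their mean gave -0.23 ± 0.064 and missed the threshold (limma adjusted p = 0.0573). CERS6 212442_s_at passed when dim probe sets were left out of the test (adjusted p = 0.0397).

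DEGS1 had 2 probe sets with differences of opposite sign. The brighter, 209250_at, read 10.91 and 10.97 in the ZNF750-labelled arrays, against 10.67 and 10.53 in the GFP arrays. It rose 1.26-fold (0.34 ± 0.058, limma adjusted p = 0.0118). The other, 207431_s_at, read 8.50 and 8.47 in the ZNF750-labelled arrays, against 8.59 and 8.58 in the GFP arrays, and did not pass (-0.10 ± 0.062, adjusted p = 0.377). Averaged, DEGS1 differed by 0.12 ± 0.049 and did not pass (adjusted p = 0.156).

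The DEGS1 promoters are shown because they were the only printed-length windows among those of 7 members with a RefSeq entry used here that held CCNNAGGC. DEGS1 has 2 annotated starts on chromosome 1, and each window held 1 match, in capitals below. The match of the upstream start lies on the opposite strand with its first base at position -57 from the start, and that of the downstream start lies on the strand of the gene at position -169.
DEGS1 upstream start, chr1:224182990-224183289, plus strand: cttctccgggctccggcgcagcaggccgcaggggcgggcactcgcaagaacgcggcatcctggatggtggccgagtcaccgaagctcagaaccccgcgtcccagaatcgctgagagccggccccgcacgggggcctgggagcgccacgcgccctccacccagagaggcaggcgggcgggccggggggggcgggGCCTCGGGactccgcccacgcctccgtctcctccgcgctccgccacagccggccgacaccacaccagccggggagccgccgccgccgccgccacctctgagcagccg
DEGS1 downstream start, chr1:224183430-224183729, plus strand: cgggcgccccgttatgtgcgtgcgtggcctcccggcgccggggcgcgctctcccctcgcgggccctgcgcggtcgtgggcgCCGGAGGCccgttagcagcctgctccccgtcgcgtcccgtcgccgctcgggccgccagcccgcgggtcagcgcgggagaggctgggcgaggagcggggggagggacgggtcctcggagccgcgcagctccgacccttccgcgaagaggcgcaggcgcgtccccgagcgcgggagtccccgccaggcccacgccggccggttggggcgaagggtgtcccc

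A match of letters is a description and not a binding site. The windows of CERS6, UGCG, SGMS2, SMPD1, SPTLC1 and SPTLC2 held 0 matches to CCNNAGGC. CERS2, which also had a called probe set, had no RefSeq promoter entry to search. ASAH1 had 3 called probe sets, and its chromosome was left out of the member search by choice. The share over all promoters was counted with that chromosome. DEGS1 is thus not shown to be the only member with a match. Neither the CERS2 call nor the DEGS1 call was kept when any 1 of the 4 arrays was left out (adjusted p of 0.106 to 0.188 for CERS2 and 0.0888 to 0.134 for DEGS1), while the differences stayed at 0.22 to 0.26 and 0.27 to 0.41.

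**Figure D2:**
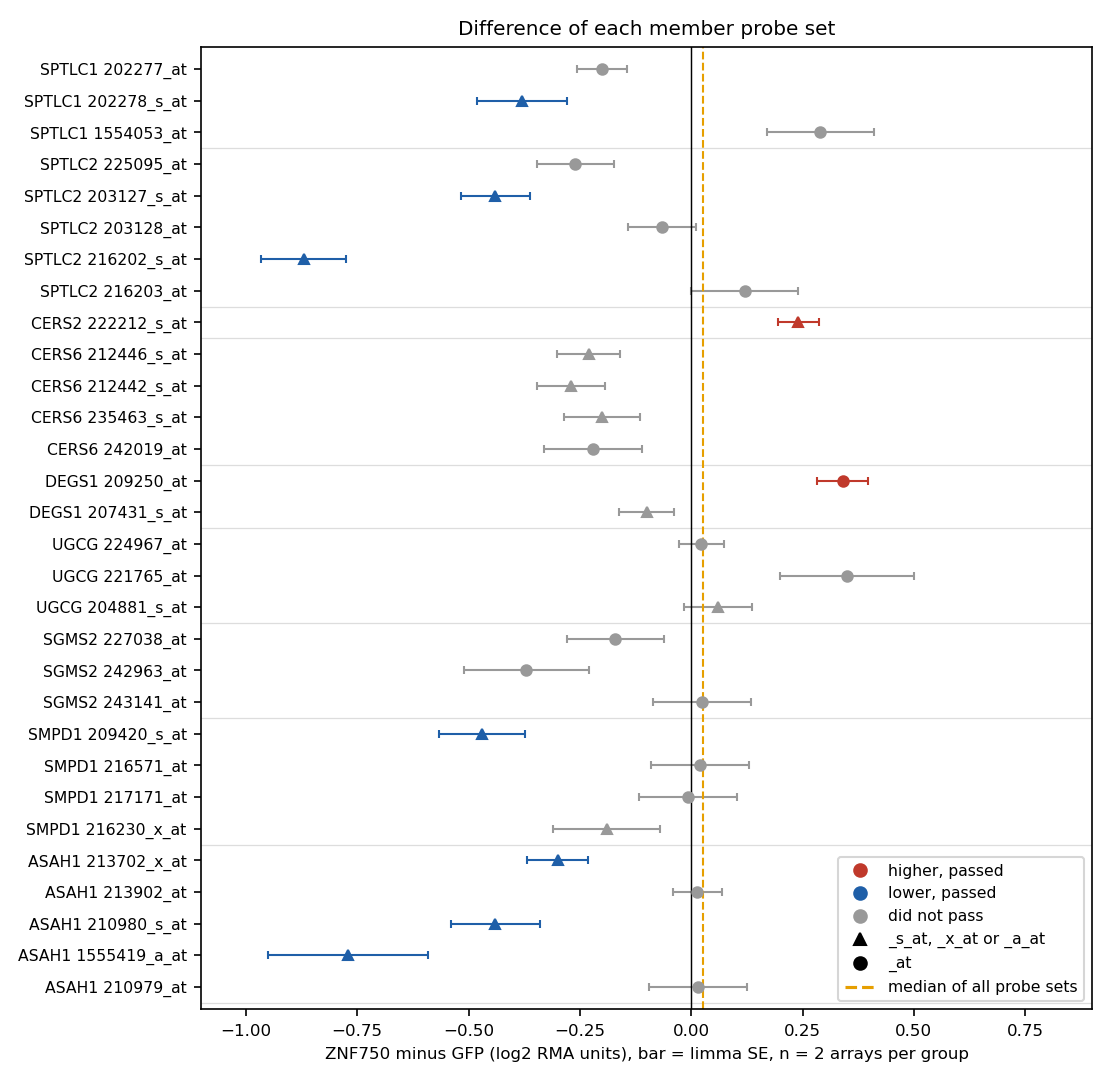
Difference of each member probe set, ZNF750-labelled minus GFP in log2 RMA units, with limma's standard error as bars (n = 2 arrays per group), triangles for probe sets ending in _s_at, _x_at or _a_at and circles for the others. Of the 9 coloured probe sets, 8 are triangles, and the dashed line marks the median of all probe sets at 0.026.

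Ceramide is converted to glucosylceramide by UGCG and to sphingomyelin by SGMS2, the sphingomyelin synthase of the plasma membrane. Of their 6 probe sets 0 were higher and 0 lower (1 and 1 at an unadjusted limma p under 0.05). UGCG 224967_at, its brightest probe set, read 10.94 and 10.85 in the ZNF750-labelled arrays, against 10.85 and 10.90 in the GFP arrays, a difference of 0.023 ± 0.051. The groups overlapped there and on 204881_s_at, which differed by 0.06 ± 0.077.

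UGCG 221765_at had the widest replicate spread of the family after ASAH1 1555419_a_at, at 9.84 and 10.17 in the ZNF750-labelled arrays, against 9.44 and 9.86 in the GFP arrays. Its difference of 0.35 ± 0.15 was the largest positive one among the members, but the groups overlapped and it did not pass (limma adjusted p = 0.18). SGMS2 had 3 probe sets. 227038_at, its brightest, read 7.15 and 6.97 in the ZNF750-labelled arrays, against 7.36 and 7.12 in the GFP arrays, with overlap (-0.17 ± 0.11). 242963_at read 5.65 and 5.29 in the ZNF750-labelled arrays, against 5.82 and 5.86 in the GFP arrays, lower without overlap but not passing (-0.37 ± 0.14, adjusted p = 0.137). The last, 243141_at, differed by 0.025 ± 0.11. Means over probe sets gave 0.15 ± 0.074 for UGCG and -0.17 ± 0.089 for SGMS2, and neither passed (limma adjusted p = 0.245 and 0.249).

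SMPD1 encodes acid sphingomyelinase, which releases ceramide from sphingomyelin in the lysosome, and ASAH1 encodes acid ceramidase, which splits ceramide into sphingosine and a fatty acid. Of their 9 probe sets, 4 were lower in the ZNF750-labelled arrays, 0 were higher (0 also at an unadjusted limma p under 0.05) and 5 did not pass. That is 44.4% lower, against 7.19% of all probe sets, of which 4.30% were higher. Of the 4 lower ones, 3 were of ASAH1 and are not independent counts. The ASAH1 probe set 1555419_a_at read 7.27 and 6.94 in the ZNF750-labelled arrays, against 8.16 and 7.60 in the GFP arrays. The groups were apart but the replicates were also spread, and the signal was 1.71-fold lower (-0.77 ± 0.18, limma adjusted p = 0.0366).

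ASAH1 210980_s_at read 8.57 and 8.62 in the ZNF750-labelled arrays, against 9.19 and 8.87 in the GFP arrays (-0.44 ± 0.1, limma adjusted p = 0.0347), a call lost with a replicate block (adjusted p = 0.0672). ASAH1 213702_x_at, its brightest, read 10.40 and 10.30 in the ZNF750-labelled arrays, against 10.74 and 10.56 in the GFP arrays (-0.30 ± 0.069, adjusted p = 0.0332). On all of these lower probe sets GFP replicate 1 was the highest array. ASAH1 213902_at, in contrast, read 9.40 and 9.39 in the ZNF750-labelled arrays, against 9.36 and 9.40 in the GFP arrays, a difference of 0.014 ± 0.055 with overlapping groups. The dim 210979_at differed by 0.016 ± 0.11. Averaged over its 5 probe sets, ASAH1 was lower (-0.30 ± 0.078, limma adjusted p = 0.047 over all genes).

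SMPD1 209420_s_at read 6.53 and 6.62 in the ZNF750-labelled arrays, against 6.96 and 7.12 in the GFP arrays, 1.38-fold lower without overlap (-0.47 ± 0.096, limma adjusted p = 0.022). The other 3 SMPD1 probe sets did not pass. 216571_at differed by 0.02 ± 0.11 and 217171_at by -0.0069 ± 0.11, both with overlapping groups, and the dim 216230_x_at by -0.19 ± 0.12. Averaging all 4 gave -0.16 ± 0.077, short of the threshold (limma adjusted p = 0.216).

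The lysosomal calls also ended when any 1 array was left out. Without GFP replicate 1 the ASAH1 differences shrank to -0.50 on 1555419_a_at, -0.28 on 210980_s_at and -0.21 on 213702_x_at, with adjusted p of 0.276, 0.212 and 0.256. Without GFP replicate 2 they were -1.05, -0.60 and -0.39, with adjusted p of 0.108, 0.0967 and 0.112. SMPD1 209420_s_at kept a difference of -0.54 to -0.39 (adjusted p of 0.108 to 0.188). Over the whole table, 267 probe sets were called higher and 661 lower without ZNF750 replicate 1, 236 higher and 416 lower without ZNF750 replicate 2, 10 higher and 1 lower without GFP replicate 1, and 8 higher and 1 lower without GFP replicate 2, against 2348 higher and 3927 lower with all arrays.

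**Figure D3:**
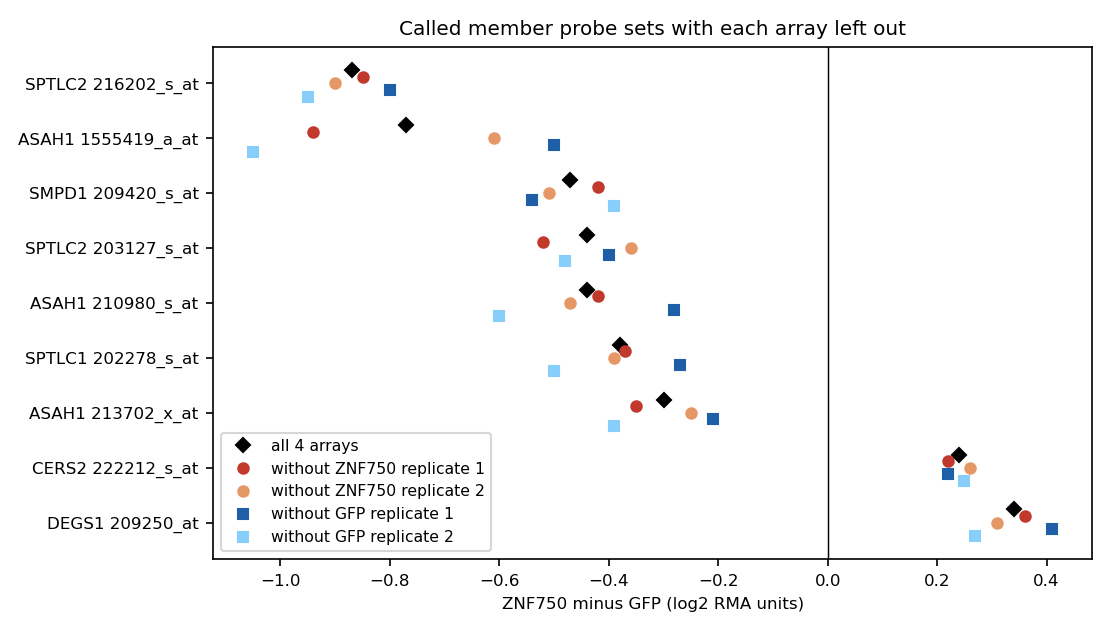
Difference (ZNF750-labelled minus GFP, log2 RMA units) of the 9 called member probe sets with all 4 arrays and with each array left out. Every point keeps the sign of its probe set, and ASAH1 1555419_a_at moves the most, between -1.05 and -0.50.

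Probe sets of the same gene gave different sizes, and that difference was tested itself. Within each array the brightest probe set of a gene was subtracted from each of its further probe sets, and the group difference of these values was fitted with limma over all 21316 such pairs in the table. Of the 21 member pairs, 0 passed (8 at an unadjusted limma p under 0.05). Of all 21316 pairs, 0% passed (5053 at an unadjusted limma p under 0.05). Since no pair of the table passed, 0 of 21 does not show that probe sets of a member agreed. The SPTLC2 pair of 216202_s_at and 225095_at came closest, with a group difference 0.61 lower on 216202_s_at (-0.61 ± 0.15, limma adjusted p = 0.0902). With dim probe sets left out, this pair (adjusted p = 0.0422) and the DEGS1 pair (-0.43 ± 0.1, adjusted p = 0.0494) were among the calls. Over all pairs in that setting 1063 of 11894 were called, and 2 of 17 member pairs, so the members lay near the whole table. The SMPD1 probe sets 216571_at and 217171_at differed from 209420_s_at by 0.49 ± 0.15 and 0.46 ± 0.14 (limma adjusted p = 0.127 and 0.124).

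Most called member probe sets were of a class that the rule did not use. On these arrays the suffixes _s_at and _a_at mark probes shared between transcripts and _x_at probes that may read unrelated transcripts. Of 14 member probe sets with such a suffix 8 were called, or 57.1%, and of 16 without it 1 was called, or 6.25%. Of the 8, 3 were of ASAH1 and 2 of SPTLC2, so these are not independent counts. Over all probe sets of the array, 16.6% of those with a suffix and 9.12% of those without were called. Among the other sphingolipid genes described below it was the reverse, with 6.9% of 29 suffixed and 10.6% of 85 further probe sets called. The 1 called member without a suffix was DEGS1 209250_at. The part of cross-hybridization or of transcript isoforms in this was not tested. Low signal was not a common feature of the members, since 4 of 30 had a mean under log2 5, none of which passed.

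Other genes of the pathway were described from a list of 63 genes chosen by role, of which 55 had 114 probe sets. Of these, 5 were higher and 6 lower in the ZNF750-labelled arrays, that is 4.39% and 5.26%, near the 4.30% and 7.19% of the whole table, with a median difference of 0.011. Each of the 11 calls fell in a different gene.

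In de novo synthesis 1 of 19 probe sets was higher and 1 lower. SPTSSA, a small activating subunit of serine palmitoyltransferase, read 9.55 and 9.60 in the ZNF750-labelled arrays, against 9.38 and 9.18 in the GFP arrays on 212460_at (0.29 ± 0.075, limma adjusted p = 0.0468). ORMDL1, a gene of the family that restrains the same enzyme, read 5.96 and 5.61 in the ZNF750-labelled arrays, against 6.57 and 6.29 in the GFP arrays on 227548_at (-0.65 ± 0.15, adjusted p = 0.0332). The other probe sets of both genes did not pass: SPTSSA 213508_at differed by 0.11 and ORMDL1 223187_s_at, its brightest, by -0.13. In the same family as ORMDL1, ORMDL2 differed by -0.18 and the 2 ORMDL3 probe sets by 0.093 and 0.20, and none passed. CERS3, the ceramide synthase of the epidermis, was dim on both its probe sets, with differences of 0.11 ± 0.13 and 0.13 ± 0.11.

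Among genes of sphingomyelin and ceramide transfer, CERT1, which carries ceramide from the endoplasmic reticulum to the Golgi, was higher on 1 of 4 probe sets. Its 219625_s_at read 8.69 and 8.60 in the ZNF750-labelled arrays, against 8.42 and 8.26 in the GFP arrays (0.30 ± 0.079, limma adjusted p = 0.0495). The other CERT1 probe sets were higher by 0.10 to 0.28 and did not pass. SGMS1, the Golgi sphingomyelin synthase, differed by -0.17 ± 0.07 and did not pass (adjusted p = 0.181).

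Of 28 probe sets for ceramidases and sphingosine 1-phosphate, 1 was higher and 1 lower. S1PR3, a receptor for sphingosine 1-phosphate, had the largest rise of the list, at 6.30 and 6.35 in the ZNF750-labelled arrays, against 5.53 and 5.78 in the GFP arrays on 228176_at (0.67 ± 0.12, limma adjusted p = 0.0126). Its other, dim probe set 231741_at differed by -0.22 ± 0.18. SPHK1, the kinase that makes sphingosine 1-phosphate, read 8.86 and 8.84 in the ZNF750-labelled arrays, against 9.10 and 9.11 in the GFP arrays (-0.26 ± 0.058, adjusted p = 0.0304). The lyase gene SGPL1, which ends the pathway, had 3 probe sets with differences of -0.18, -0.10 and -0.084, none of which passed.

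Glycosphingolipid synthesis had 2 higher and 0 lower among 25 probe sets (0 lower also at an unadjusted limma p under 0.05). That is 8% higher, against 4.30% of all probe sets, of which 7.19% were lower. B4GALT5, which makes lactosylceramide from glucosylceramide, read 10.79 and 10.74 in the ZNF750-labelled arrays, against 10.54 and 10.50 in the GFP arrays on 221484_at (0.25 ± 0.048, limma adjusted p = 0.0179). B4GALNT1, a ganglioside synthase, differed by 0.42 ± 0.086 on 1555385_at (adjusted p = 0.0219). In both genes the second probe set did not pass and pointed lower, by -0.032 ± 0.064 for B4GALT5 221485_at and -0.12 ± 0.07 for B4GALNT1 206435_at.

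Glycosphingolipid breakdown had 3 lower and 0 higher among 20 probe sets (0 higher also at an unadjusted limma p under 0.05). That is 15% lower, against 7.19% of all probe sets, of which 4.30% were higher. The group is mainly lysosomal, but 2 of its probe sets read a non-lysosomal enzyme, and neither passed. GALC, the lysosomal galactosylceramidase, read 8.69 and 8.59 in the ZNF750-labelled arrays, against 9.11 and 9.10 in the GFP arrays on 204417_at (-0.47 ± 0.064, limma adjusted p = 0.00519). ARSA, arylsulfatase A, differed by -0.37 ± 0.088 on 204443_at (adjusted p = 0.0388) and GLA, alpha-galactosidase A, by -0.28 ± 0.055 (adjusted p = 0.019). GALC 211810_s_at differed by 0.23 ± 0.11 and ARSA 236541_at by -0.034 ± 0.1, and neither passed. None of the 4 probe sets of HEXA, a subunit of beta-hexosaminidase, passed, with differences of -0.10 to 0.062. The activator protein genes GM2A, with 7 probe sets at -0.22 to 0.21, and PSAP, with 2 at -0.13 and 0.10, had no call either. The median of the group was -0.051.

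Among genes for the acylceramides of the skin barrier, 1 of 12 probe sets was lower and 0 were higher (1 at an unadjusted limma p under 0.05). ABHD5, a lipase coactivator needed for acylceramide formation in the epidermis, read 7.72 and 7.67 in the ZNF750-labelled arrays, against 8.41 and 8.34 in the GFP arrays on 218739_at (-0.68 ± 0.07, limma adjusted p = 0.00212). This was the largest fall of the list. Its other probe sets differed by -0.31, -0.17 and 0.14 and did not pass. Of the 12 probe sets, 8 had a mean under log2 5, where RMA understates differences.

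With either GFP array left out, 0 pathway probe sets were called in either direction. The counts were 0 higher and 2 lower without ZNF750 replicate 1, and 0 in both directions without ZNF750 replicate 2. With the mean of all probe sets per gene, 0 pathway genes were higher and 3 lower.

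**Figure D4:**
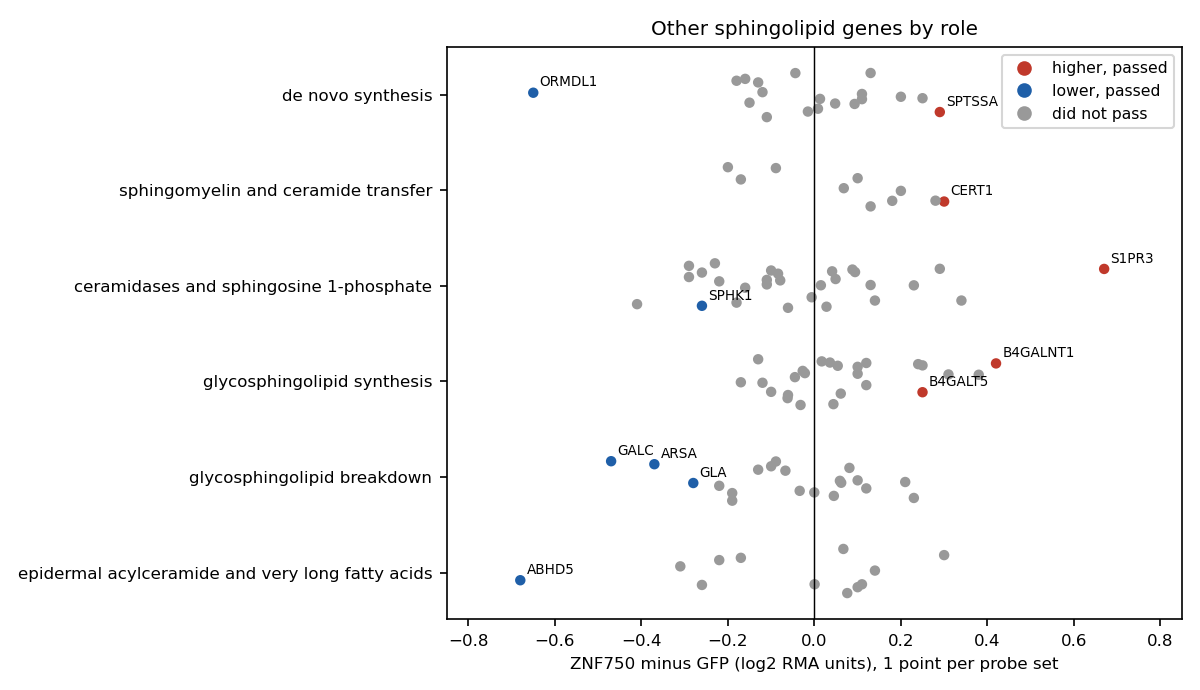
Difference (ZNF750-labelled minus GFP, log2 RMA units) of 114 probe sets of other sphingolipid genes, 1 point each, by role (vertical jitter only separates points). The 11 named points passed, and those in glycosphingolipid breakdown, GALC, ARSA and GLA, all lie below 0.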

How the data were processed

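The authors deposited 1 table of log2 values for 54675 probe sets on 4 arrays. Per the submitters' processing notes they were made with RMA (version not given in the sources used here), which corrects background, quantile normalizes probes and summarises each probe set. RMA understates differences of dim probe sets. No detection calls were used, and the number of arrays limits precision. Symbols came from the platform annotation: 41091 probe sets had 1 symbol, 1801 several and 11721 none, beside 62 controls left out of the tests.

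Group differences came from limma 3.58.1 under R 4.3.3 (lmFit, eBayes with an intensity trend, 2 residual degrees of freedom), with Benjamini-Hochberg adjustment over 54613 probe sets. The fit was also run on simulated data that followed limma's own variance model, so that run does not check the assumptions of the model. Errors are limma standard errors. The members, lists, motifs and naming rule were chosen with earlier results of these data known. The rule named all members, up to 6 pathway genes per direction with the largest difference that passed, and CERS3, SPHK1, SGPL1 and SGMS1, beside 1 further gene not reported here. Alternatives covered the variance prior, normalization, dim probe sets, probe set choice, the replicate block, thresholds and each array left out. Promoters came from RefSeq (GRCh38.p14).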

Additional observations from a re-analysis of the deposited data

How the results depend on the processing

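No member probe set that passed changed sign under any alternative run. Of the member probe sets, 7 were lower and 2 higher, and these counts were 1 and 0 without the intensity trend, 3 lower with the brightest probe set of each gene, 2 and 1 with the mean of probe sets, 0 and 1 without _s_at, _x_at and _a_at probe sets, 1 and 0 at an adjusted p under 0.01 and 2 and 0 with a log2 difference of at least 0.5. With an array left out they were 0 to 1 lower and 0 higher. Of the pathway probe sets, 6 lower and 5 higher became 1 and 0 without the trend, 3 higher with the brightest probe set, 3 lower and 0 higher with the mean of probe sets, 3 higher without the suffixed probe sets, 2 and 0 at an adjusted p under 0.01, 2 lower and 1 higher with a difference of at least 0.5, and 0 to 2 lower and 0 higher with an array left out. In the whole table, lower and higher shares were 1.38% and 0.952% without the trend, and 10.2% and 7.79% with the brightest probe sets. They were 8.09% and 5.27% with the mean of probe sets, and 4.79% and 3.3% without the suffixed ones. At an adjusted p under 0.01 they were 2.7% and 1.29%, and with a difference of at least 0.5 they were 2.67% and 1.76%. The number of member pairs that disagreed within a gene was 2 of 17 instead of 0 of 21 with dim probe sets left out, where 1063 of 11894 pairs of the whole table were called instead of 0 of 21316, a test chosen after seeing the data, as were the other alternatives for this result. Of 300 recomputed differences of single member probe sets, 47 lost their call, 5 gained one and 12 of probe sets that did not pass changed sign. The replicate numbers are not shown to pair the arrays. Deviations of same-numbered arrays from their group means correlated at 0.134, and with 2 arrays per group both pairs must give the same value. A replicate block gave 5 member probe sets lower and 3 higher, and 7 pathway probe sets lower and 4 higher. With the block UGCG 221765_at (0.35) passed (limma adjusted p = 0.0215). SPTLC1 202278_s_at (limma adjusted p = 0.0689) and ASAH1 210980_s_at (limma adjusted p = 0.0672) were no longer called. Fits with an array left out have fewer residual degrees of freedom, and a lone array is assumed to vary like the other group.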
